A study of Mus musculus with 10 samples.

Results

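The Notch receptors, ligands and effectors examined here are 10 genes, chosen by name from the 26335 rows of 1 expression table: the receptors Notch1, Notch2 and Notch3, the ligands Dll1, Dll3, Dll4, Jag1 and Jag2, and the target genes Hes1 and Hey1. The choice by name used no measured value, but earlier results of these data were known when it was made. All 10 had a row. RNA was sequenced from a mouse small cell lung cancer line grown from a primary lung tumour of mice in which Rb1 and Trp53 were deleted by Cre delivered with an adenovirus into the trachea. Both groups were this 1 line and carried the same deletions. The 5 control libraries came from cells kept 48 h in DMSO, the vehicle, and the 5 stiripentol libraries from cells kept 48 h in 250 μM stiripentol, an antiseizure drug. The sample records do not say whether the libraries are separate cultures, so p-values measure the spread between libraries only.

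Notch receptors are single-pass membrane proteins that are activated by Delta-like and Jagged ligands on a neighbouring cell. Cleavage by an ADAM protease and then by γ-secretase frees the intracellular domain, which enters the nucleus, joins RBPJ and Mastermind-like proteins and switches on genes of the Hes and Hey families, themselves transcriptional repressors. In small cell lung cancer, most neuroendocrine tumours hold the pathway low and express Dll3, an inhibitory ligand, whereas active Notch signalling marks non-neuroendocrine cells that express Hes1, Rest and Yap1.

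Values are log2 CPM, the log2 of the reads of a gene scaled to a common library total, as deposited. Recovered totals were 22375625 to 65299372 reads in control libraries (median 63607057) and 55015760 to 60670901 in stiripentol libraries (median 57977596), and control 5 was the shallowest. The libraries of each group formed a set of 2 (controls 4 and 5, stiripentol 1 and 2) and a set of 3 (controls 1 to 3, stiripentol 3 to 5). Across genes, Pearson r was 0.983 to 0.997 within a control set and 0.995 to 0.997 within a stiripentol set, but 0.920 to 0.939 and 0.922 to 0.938 between the sets of a group. What separates the sets is not given in the sources used here. Libraries are numbered here as in the sample records, whereas the study numbers controls 4 and 5 of the records as its controls 1 and 2, beside stiripentol 1 and 2. The control and stiripentol sets were matched by that second numbering, and by the numbers of the records they would not be. The correlations do not settle the matching: control libraries of the set of 2 correlated with the stiripentol set of 3 at 0.932 to 0.938 and with the stiripentol set of 2 at 0.881 to 0.904. Changes of the Notch genes that were tested are therefore given over all 10 libraries and within each set. For many of the other genes named, changes are given over all 10 libraries only.

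Of the 10 genes, 8 had a mean log2 CPM above 0 and were tested, and Dll3 and Dll4 were below that level. A gene was called at a limma adjusted p under 0.05, with Benjamini-Hochberg adjustment over the 12306 genes tested. Hey1, Dll1 and Jag1 rose with stiripentol and Notch3 fell, so 3 of the 8 were higher and 1 was lower, where 13.6% of all tested genes were called higher and 14.1% lower. Notch1, Notch2, Jag2 and Hes1 did not pass the test. The median log2 change was 0.26 over the 8 genes and -0.06 over all genes tested. The largest change was that of Hey1, 2.86-fold higher with a 95% interval of 1.85 to 4.43-fold. In these bulk libraries, fewer cells that express a gene and less of its RNA per cell cannot be told apart.

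**Figure D1:**
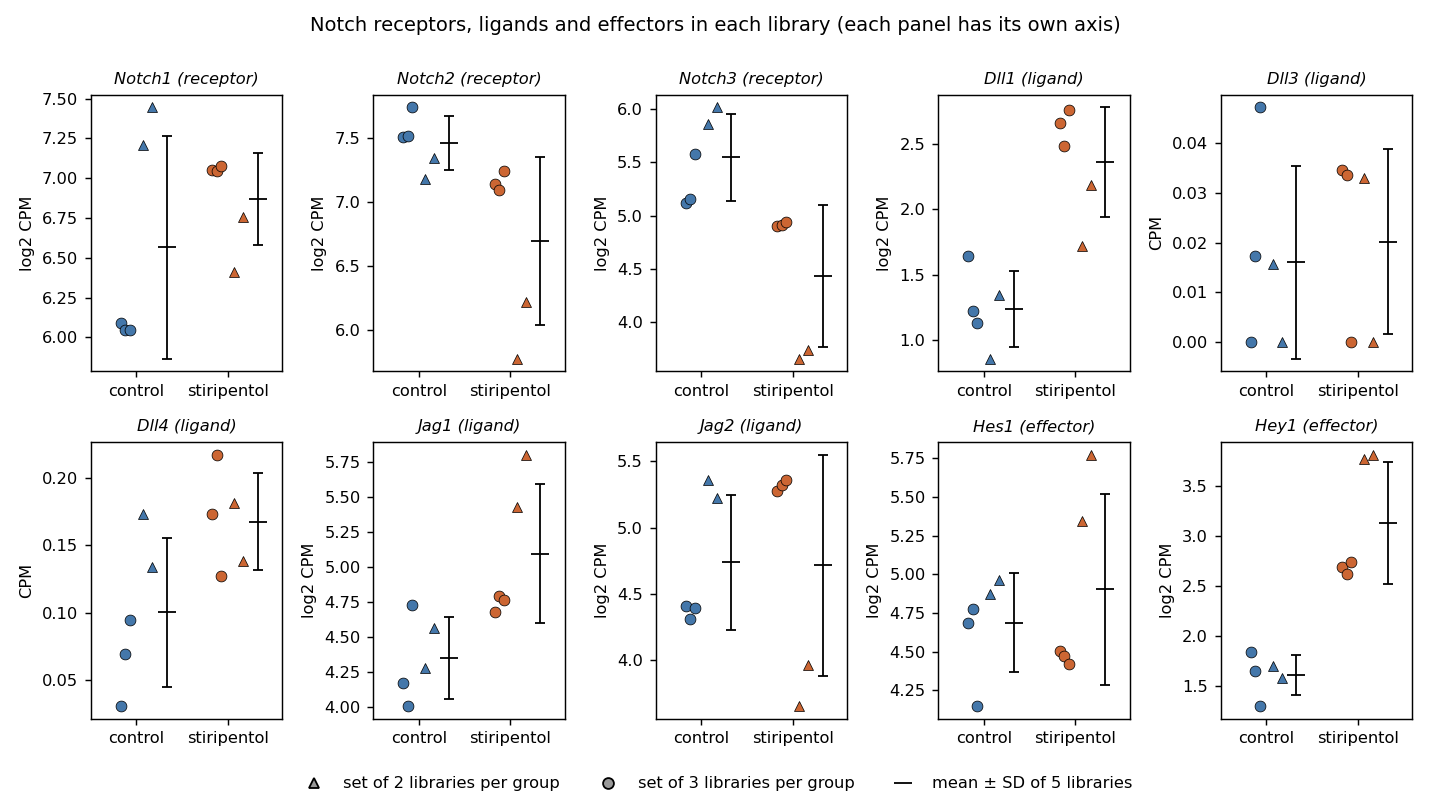
Level of each of the 10 genes in each library, with controls in blue and stiripentol libraries in orange, triangles for the set of 2 and circles for the set of 3 of each group, and bars for the mean ± SD of 5 libraries. The vertical axes are log2 CPM, except CPM for Dll3 and Dll4, and differ between panels. Groups do not overlap for Notch3, Dll1 and Hey1. Among the tested genes, which leave out Dll3 and Dll4, the order of the sets is opposite in the 2 groups for Notch1, Notch3 and Jag2.

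Among the receptors, Notch3 was at 5.12, 5.15, 5.58, 5.86 and 6.02 log2 CPM in controls 1 to 5 and at 3.66, 3.74, 4.90, 4.91 and 4.94 in stiripentol libraries 1 to 5. Every stiripentol library lay below every control, a separation that 14.3% of all tested genes showed in that direction. The mean fell from 5.54 ± 0.41 (SD, n = 5) to 4.43 ± 0.67 (SD, n = 5), a log2 change of -1.12 with a standard error (SE) of 0.31 (limma adjusted p = 0.0246). The stiripentol set of 2 was well below the other 3 libraries of its group. Leaving out control 3, control 5 or stiripentol 2 ended the call, with log2 changes of -1.11, -0.997 and -0.94.

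Notch2, the receptor whose activity is tied to non-neuroendocrine tumour cells, was at 7.51, 7.52, 7.74, 7.18 and 7.35 log2 CPM in controls and at 5.78, 6.22, 7.14, 7.10 and 7.24 in stiripentol libraries. Only stiripentol 5 reached into the range of the controls, above control 4. The log2 change was -0.76 (95% interval -1.37 to -0.16), with a limma adjusted p = 0.0608 that missed the threshold. It was called, with log2 changes of -0.71, -0.68 and -0.69, after quantile, TMM and median-ratio scaling.

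Notch1, the best studied of the receptors, was at 6.09, 6.04, 6.05, 7.21 and 7.45 log2 CPM in controls and at 6.41, 6.76, 7.05, 7.05 and 7.08 in stiripentol libraries. Controls 4 and 5 were the highest of the 10 libraries and controls 1 to 3 the lowest, with the stiripentol libraries between them. Over all libraries the log2 change was 0.30 (95% interval -0.36 to 0.97, limma adjusted p = 0.465), a range that holds both a fall and a rise.

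Among the ligands, Dll1, which activates Notch receptors on adjacent cells, was at 1.65, 1.22, 1.13, 0.86 and 1.34 log2 CPM in controls and at 1.72, 2.18, 2.66, 2.49 and 2.76 in stiripentol libraries. These values rest on 202, 133, 137, 113 and 56 reads in controls and 198, 261, 364, 333 and 370 reads in stiripentol libraries. Every stiripentol library was above every control, although stiripentol 1 exceeded control 1 by little, and 13.0% of all tested genes were separated in that direction. The mean rose from 1.24 ± 0.29 to 2.36 ± 0.42 (SD, n = 5 each), a log2 change of 1.12 (SE 0.25, limma adjusted p = 0.00911), or 2.18-fold.

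Jag1, a Jagged-family ligand, was at 4.17, 4.01, 4.73, 4.28 and 4.57 log2 CPM in controls and at 5.43, 5.80, 4.68, 4.79 and 4.77 in stiripentol libraries. The stiripentol set of 2 stood apart at the top, and the other 3 stiripentol libraries were near control 3. The mean rose from 4.35 ± 0.29 to 5.10 ± 0.50 (SD, n = 5 each), a log2 change of 0.74 (SE 0.24, limma adjusted p = 0.0424). The call was lost without control 1, 2, 4 or 5 or stiripentol 1 or 2, at log2 changes of 0.57 to 0.80. It was also lost under the 3 other scalings, at 0.80 to 0.82.

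Jag2 was at 4.41, 4.31, 4.39, 5.36 and 5.22 log2 CPM in controls and at 3.66, 3.96, 5.28, 5.32 and 5.36 in stiripentol libraries. The control set of 2 and the stiripentol set of 3 shared a level near the top, and the stiripentol set of 2 was lowest. The mean was 4.74 ± 0.51 in controls and 4.72 ± 0.83 in stiripentol libraries (SD, n = 5 each), a log2 change of -0.02 (95% interval -0.88 to 0.83, limma adjusted p = 0.968).

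Dll3, the inhibitory ligand, had 0, 1, 3, 1 and 0 reads in controls and 2, 0, 2, 2 and 0 reads in stiripentol libraries, so it was at or near the floor of counting in all 10. Its mean was 0.0160 ± 0.0192 CPM in controls and 0.0202 ± 0.0184 CPM in stiripentol libraries (SD, n = 5 each, two-sided exact permutation p = 0.651). Dll4, a ligand best known from endothelial cells, had 2, 4, 6, 11 and 3 reads in controls and 11, 8, 10, 13 and 7 reads in stiripentol libraries. Its mean was 0.1002 ± 0.0554 CPM against 0.167 ± 0.0360 CPM (SD, n = 5 each), a difference that missed the threshold (two-sided exact permutation p = 0.0556, where the smallest p that 5 against 5 allows is 0.00794).

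Among the effectors, Hey1 was at 1.83, 1.64, 1.29, 1.69 and 1.58 log2 CPM in controls and at 3.77, 3.81, 2.69, 2.62 and 2.73 in stiripentol libraries. The reads were 230, 179, 154, 203 and 66 in controls and 826, 811, 371, 365 and 364 in stiripentol libraries. Every stiripentol library was above every control, and the stiripentol set of 2 was above the set of 3. The mean rose from 1.61 ± 0.20 to 3.12 ± 0.61 (SD, n = 5 each), a log2 change of 1.52 (SE 0.29, limma adjusted p = 0.00391).

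Hes1, the other effector, did not follow Hey1 in all libraries. It was at 4.69, 4.77, 4.15, 4.87 and 4.96 log2 CPM in controls and at 5.34, 5.77, 4.50, 4.47 and 4.42 in stiripentol libraries. The stiripentol set of 2 was above every control, while the other 3 stiripentol libraries lay inside the range of the controls. The log2 change over all libraries was 0.21 (95% interval -0.41 to 0.84, limma adjusted p = 0.588).

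Within the set of 2, all 8 tested genes were called, with 4 lower and 4 higher, where 46.5% of all genes were lower and 25.7% higher. Notch3 (log2 change -2.24), Jag2 (-1.48), Notch2 (-1.26) and Notch1 (-0.74) fell, and Hey1 (2.16), Jag1 (1.195), Dll1 (0.85) and Hes1 (0.64) rose. Thus in these 4 libraries all 3 receptors fell and both effectors rose, beside a median over all genes of -0.25. Within the set of 3, 6 genes were called, with 2 lower and 4 higher, where 27.0% of all genes were lower and 37.7% higher. Dll1 (1.30), Hey1 (1.09), Notch1 (1.00) and Jag2 (0.95) rose, and Notch2 (-0.43) and Notch3 (-0.37) fell, beside a median of 0.08. Jag1 (0.44, limma adjusted p = 0.0538) and Hes1 (-0.07, limma adjusted p = 0.702) did not pass there.

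The effect of stiripentol differed between the sets for 7 of the 8 genes (limma interaction, adjusted p under 0.05), as it did for 63.3% of all tested genes. The effect in the set of 2 minus that in the set of 3 was -2.43 for Jag2 (limma adjusted p = 4.33e-07), -1.74 for Notch1 (3.08e-06), -1.87 for Notch3 (7.69e-06) and -0.83 for Notch2 (0.00182). It was 1.06 for Hey1 (limma adjusted p = 0.00162), 0.71 for Hes1 (0.0256) and 0.75 for Jag1 (0.0299). For Dll1 it was -0.45 (95% interval -1.13 to 0.23, limma adjusted p = 0.221). Notch1 and Jag2 were the 2 genes called in opposite directions in the 2 sets. Over all genes the interaction called 5569 lower and 2223 higher with a median of -0.33, and after quantile normalization 3671 lower and 3716 higher with a median of 0.00. The 7 calls and their directions held after that scaling.

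With the sets matched the other way, the stiripentol set of 3 minus the control set of 2 was 1.53 for Dll1, 1.05 for Hey1, 0.33 for Jag1, -0.10 for Notch2 and -1.02 for Notch3 on the log2 scale. The stiripentol set of 2 minus the control set of 3 was 0.62 for Dll1, 2.20 for Hey1, 1.31 for Jag1, -1.59 for Notch2 and -1.58 for Notch3. These 5 genes thus had 1 direction under either matching. Notch1 gave -0.27 and 0.52, Jag2 0.03 and -0.56, and Hes1 -0.45 and 1.02, in the same order, so their direction depended on which libraries were compared.

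**Figure D2:**
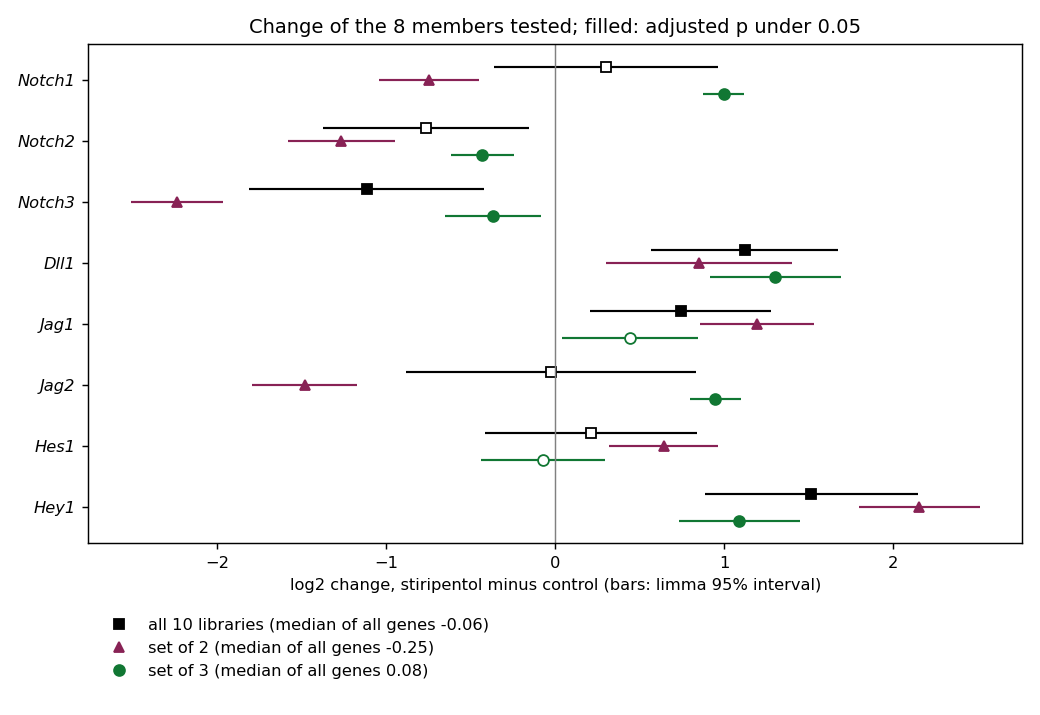
Log2 change (horizontal axis, stiripentol minus control) of the 8 tested genes over all 10 libraries (black squares), in the set of 2 (purple triangles) and in the set of 3 (green circles), with limma 95% intervals as bars and filled symbols for adjusted p under 0.05. Notch3 lies at -2.24 in the set of 2 and -0.37 in the set of 3, and Notch1 at -0.74 and 1.00.

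In the promoters, 9 windows of RefSeq (GRCm38.p6), the 250 bases before a transcription start, were found for 8 of the genes. Hes1 and Hey1 had no entry. TGGGAA, the core that RBPJ binds, was searched on both strands and was in 0 of the 9 windows, where 21.6% of all 32851 windows hold it. GTGGGAA, a longer form that contains that core, is in 5.42% of all windows. CAGCTG, a form of the E-box bound by basic helix-loop-helix factors, was in 3 windows, those of Dll1 (its second start), Dll3 and Jag1. It is in 13.0% of all windows, and other forms of the E-box were not searched. These 3 are shown because they hold the only CAGCTG matches and belong to a pair of ligands that rose and to Dll3, which was near 0 reads. All are on the minus strand and are written 5′ to 3′ with CAGCTG in capitals. The second Dll1 window is chr17:15376933-15377182, that of Jag1 is chr2:137116521-137116770 and that of Dll3 is chr7:28301786-28302035.
Dll1: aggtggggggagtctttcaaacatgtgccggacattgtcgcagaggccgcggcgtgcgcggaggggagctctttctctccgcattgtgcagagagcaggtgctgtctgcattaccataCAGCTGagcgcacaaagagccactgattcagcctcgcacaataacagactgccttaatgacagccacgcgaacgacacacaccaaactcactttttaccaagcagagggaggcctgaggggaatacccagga
Jag1: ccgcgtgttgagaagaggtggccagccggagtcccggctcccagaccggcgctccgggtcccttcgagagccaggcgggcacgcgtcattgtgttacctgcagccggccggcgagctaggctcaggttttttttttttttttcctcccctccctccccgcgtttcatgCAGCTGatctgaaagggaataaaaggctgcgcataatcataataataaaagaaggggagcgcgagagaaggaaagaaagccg
Dll3: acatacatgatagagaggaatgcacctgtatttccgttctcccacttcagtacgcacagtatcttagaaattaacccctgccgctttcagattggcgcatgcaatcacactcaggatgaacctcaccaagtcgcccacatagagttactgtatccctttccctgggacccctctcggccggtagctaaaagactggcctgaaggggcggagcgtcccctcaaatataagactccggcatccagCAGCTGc
CAGCTG spans bases 132 to 127 before the start in Dll1, 82 to 77 in Jag1 and 7 to 2 in Dll3. CACNAG, the N-box bound by Hes proteins, had matches in the windows of Notch1, Notch2, Notch3 and Dll4 and is in 36.7% of all windows. Matches describe these letters only.

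In GENCODE M21 (GRCm38, the assembly also called mm10), Notch1 is at chr2:26457903-26516663, Notch2 at chr3:98013527-98150361 and Notch3 at chr17:32120820-32166852. The ligands are at chr17:15367354-15376872 (Dll1), chr7:28293553-28302238 (Dll3), chr2:119325784-119335962 (Dll4), chr2:137081456-137116644 (Jag1) and chr12:112907819-112929776 (Jag2), and the effectors at chr16:30064384-30067796 (Hes1) and chr3:8663359-8667256 (Hey1). Other annotated genes, of noncoding or unclassified type, overlap Notch1, Notch2, Notch3, Dll1, Dll4 and Jag2, and none of those with a row had more than 122 reads summed over the 10 libraries.

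Of the other genes of the pathway, a list of 63 genes, 51 were tested: 8 fell, 6 rose and 37 were not called, with a median log2 change of -0.17. Over all tested genes 14.1% were lower and 13.6% higher, so the counts of this list are near the background and the genes below are a description. In the machinery that matures the receptors, 2 of the 4 glycosylation genes tested fell and none rose. They were Poglut1 (log2 change -1.86), which adds O-glucose to the receptor, and Lfng (-1.50), the Fringe enzyme that tunes which ligands a receptor answers to. Poglut1 had a mean of 1.73 log2 CPM in controls and 0.83 in stiripentol libraries of the set of 2, and of 4.35 and 1.84 in the set of 3. The stiripentol set of 3 was thus not below the control set of 2, so the direction of Poglut1 depended on the matching of the sets. Among 10 protease genes, Furin (-0.99), which cleaves the receptor on its way to the surface, fell. Psenen (1.07), a part of γ-secretase, rose.

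In the nucleus, 1 of 9 genes of the transcription complex was called, Maml3 (-0.93), a Mastermind-like co-activator, which fell. Rbpj, the DNA-binding partner of every Notch receptor, was at 7.15, 7.09, 6.99, 5.53 and 5.84 log2 CPM in controls and at 5.37, 5.63, 5.94, 5.95 and 5.99 in stiripentol libraries. Controls 1 to 3 stood above the other 7 libraries, and the log2 change of -0.75 missed the threshold (95% interval -1.46 to -0.03, limma adjusted p = 0.108). Of 13 co-repressor genes, Hdac1 (-0.92), a histone deacetylase, and Tle2 (-0.88), a Groucho-family protein, fell. Ncor1 (0.51), a nuclear receptor co-repressor, and Cir1 (0.66), which links RBPJ to deacetylases, rose.

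Of 12 genes for ubiquitin ligases and endocytosis, 2 rose and none fell over all libraries. These 2, Mib2 (1.14) and Neurl1b (1.07), encode ligases of the kind that drive ligand uptake in the cell that sends the signal. Within the set of 2, 4 of the 12 were lower and 3 higher, and within the set of 3, 1 was lower and 4 higher. Outside the 10 genes, only 2 further effectors and 1 further ligand-like gene were expressed above the filter. Hes6 (-1.19), which opposes Hes1, fell, Nrarp, a target that dampens the signal, had a log2 change of -0.05 (limma adjusted p = 0.870), and Dlk2 was not called. Within the set of 2, 26 of the 51 genes were lower and 7 higher, and within the set of 3, 17 were lower and 13 higher, each to be read beside the shares of all genes given above.

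**Figure D3:**
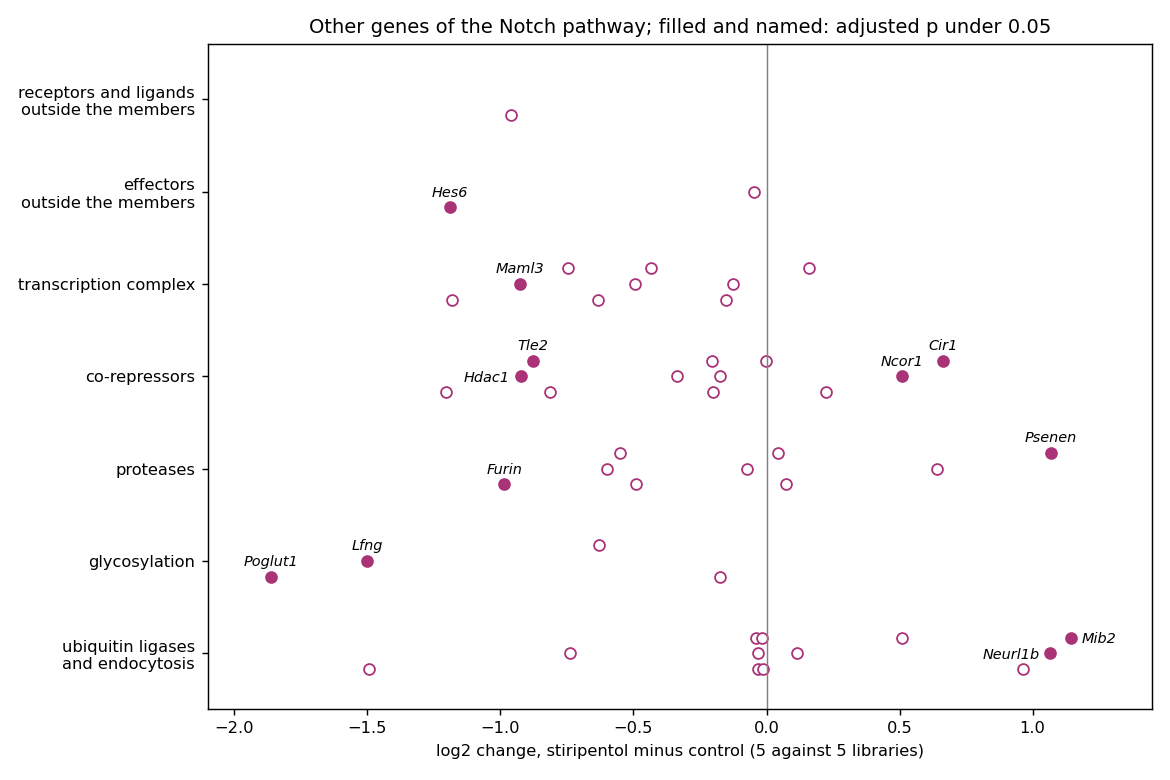
Log2 change (horizontal axis, stiripentol minus control, 5 against 5 libraries) of other pathway genes tested, in rows by role, with called genes filled and named. Both called glycosylation genes lie left of 0 and both called ubiquitin ligase genes right of it.

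The markers of cell state went against a neuroendocrine label. Of the 8 neuroendocrine markers with a row, only Ncam1 and Uchl1 had a mean log2 CPM above 0. Neurod1, Chga and Calca had no row under these symbols. Insm1 had at most 10 reads in a library. By contrast, all 7 markers of non-neuroendocrine small cell lung cancer, among them Notch2 and Hes1, were above that level. The line is therefore not called neuroendocrine here.

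Of these markers, Rest (log2 change -0.51, limma adjusted p = 0.0426), a repressor of neuronal genes and a Notch target, and Yap1 (-0.87, limma adjusted p = 0.0250) fell, and Ncam1 (0.46, limma adjusted p = 0.00911), a cell adhesion molecule, rose. Uchl1, the other neuroendocrine marker above the filter, was not called over all libraries (log2 change 0.22, limma adjusted p = 0.779). It was called lower in the set of 2 (-1.69) and higher in the set of 3 (1.496). Of the other non-neuroendocrine markers, Notch2 (-0.76) was not called over all libraries but was called lower in each set. Cd44 (0.34), Vim (0.28) and Axl (0.26) did not move with Rest and Yap1 and were not called over all libraries. Cd44 and Vim were called higher in each set, and Axl was called higher in the set of 3. Yap1 and Rest fell while Hey1 rose, and Hes1 was not called. Myc had a log2 change of -0.52 over all libraries (95% interval -1.24 to 0.19, limma adjusted p = 0.240). Within the sets it was called lower in each, at -0.45 in the set of 2 and -0.58 in the set of 3. The summed level of the neuroendocrine list was 93.5 to 120 CPM in controls and 127 to 157 CPM in stiripentol libraries, and this sum was nearly all Ncam1. That of the non-neuroendocrine list was 3374 to 4692 against 3783 to 5662 CPM.

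**Figure D4:**
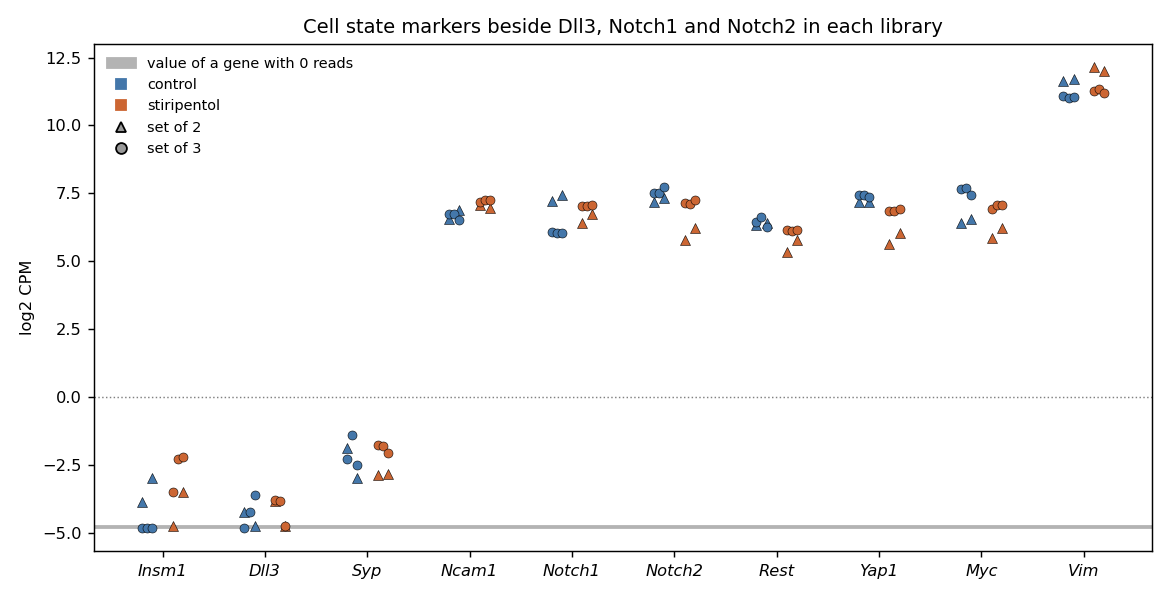
Log2 CPM (vertical axis) of cell state markers, Dll3, Notch1 and Notch2 in each library, with controls in blue, stiripentol in orange, triangles for the set of 2 and circles for the set of 3. The grey band is the value of a gene with 0 reads, near which Insm1 and Dll3 lie, while Rest, Yap1, Notch1 and Notch2 lie far above it in all 10 libraries. Beyond the distance from that band, levels are to be compared within a gene only.

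Markers of other cell types moved beside these genes. The 6 fibroblast genes, all above the filter, summed to 404 to 696 CPM in controls and 152 to 185 CPM in stiripentol libraries, with Col3a1 (log2 change -5.71), Col1a2 (-2.30), Pdgfrb (-1.49) and Pdgfra (-1.27) lower. Of these, Pdgfra was called lower in the set of 3 (-2.03) but not in the set of 2 (-0.12, limma adjusted p = 0.363). Col1a1 (-0.54) and Dcn (-0.49) were not called over all libraries. Dcn was called higher in the set of 2 (1.76) and lower in the set of 3 (-1.996), and Col1a1 was called lower in the set of 2 (-2.63) and was at 0.86 in the set of 3 (limma adjusted p = 0.0630). The 4 immune genes with a row summed to 6.43 to 18.6 CPM and 58.8 to 103 CPM, with Cd68 (3.21) higher and making up most of each sum, while Lyz2 (0.41, limma adjusted p = 0.648) was not called and Ptprc had at most 3 reads in a library. The 4 tuft-like genes summed to 1.93 to 6.96 CPM and 25.2 to 59.7 CPM, a rise of Avil (5.01) alone. Pou2f3, the factor that defines tuft-like tumours, was below the filter and went the other way, from 0.845 to 4.51 CPM in controls to 0.0517 to 0.267 CPM in stiripentol libraries, and Trpm5 from 0.157 to 0.3302 CPM to at most 0.145 CPM. The 4 epithelial genes summed to 2278 to 2598 CPM and 1544 to 2145 CPM, nearly all from Krt8 (-0.36, lower) and Krt18 (-0.47, not called), while Epcam and Cdh1 were below the filter. Within the sets, Krt18 was called lower in the set of 3 (-0.65) but not in the set of 2 (-0.19, limma adjusted p = 0.0918). The 4 endothelial genes stayed at or below 1.203 CPM in every library. The part of these lists in the changes of the Notch genes was not tested. Of the genes deleted in the model, Rb1 had up to 487 reads in a control and up to 1443 in a stiripentol library, and Trp53 up to 236 and 147. Reads summed over a whole gene do not show whether the deleted part is absent.

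The genes whose log2 CPM ran most like that of each member over the 10 libraries, by Pearson r, were Rae1 (0.992) for Hey1, Baz1a (0.981) for Dll1 and Golga3 (0.982) for Jag1. They were Bach2 (0.994) for Notch3, Hip1 (0.994) for Notch2 and Carmil3 (0.990) for Notch1. For Jag2 it was 2810029C07Rik (0.997) and for Hes1 Zmym5 (0.970). The next in order were Ubr7 (0.989), Dhx8 (0.971), Mark4 (0.982), Nfatc4 (0.990), Mast4 (0.994), Elfn1 (0.988), Srxn1 (0.993) and Ube2r2 (0.968), for the members in the same order. All points share the 2 groups and the library sets, so these values are a description.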

How the data were processed

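RNA of 5 control and 5 stiripentol samples was sequenced. The deposited table, made by the authors, holds log2 CPM for each gene in each library, with a prior of 0.837 to 2.38 reads that scales with library size. The methods name Genavi for normalization to CPM and a 3′ mRNA kit, the sample records name a TruSeq total RNA kit, and levels were therefore not compared between genes. The build in the submitters' processing notes is mm10, and the aligner, the counter and the annotation are not given in the sources used here. Deposited group means, p-values, q-values and fold changes hold the authors' own comparisons and were not used.

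Columns were matched to samples by name. Whole reads were recovered from 100% of values (within 0.1 read). The value of 0 reads was -4.82 in controls 1 to 3 and -4.74 elsewhere, so the prior differed between these libraries. Groups were compared with limma 3.58.1 (lmFit, eBayes with a trend) in R 4.3.3 on deposited log2 values, which include the prior, of genes with a mean above 0, with no covariate. The interaction fit had group, library set and their product. Dll3 and Dll4 were compared by exact permutation of CPM. Python 3.11.15, numpy 2.4.6, scipy 1.17.1, pandas 2.3.3 and matplotlib 3.10.9 were used. Scripts were tested on simulated data. No library was a copy of another, the lowest chi-square per gene being 8.39, where counting alone gives about 1. Depth covers counting error only.

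Members and lists were chosen with earlier results of these data known. Named were all members, the called pathway genes, the 2 genes most like each member, Neurod1, Insm1, Rest, Yap1, Myc, Rb1 and Trp53, and markers by counts. The results of some genes of these lists are not reported here. Marker genes given with values of their own, Rbpj, Nrarp and Dlk2 were chosen after their values were seen. Alternatives were the omission of single libraries, a block for the replicate number, library sets, scalings, filters, pseudocounts, voom on recovered reads, a minimum change and, chosen after the values were seen, 1 mean per group and set and the other matching of the sets.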

Additional observations from a re-analysis of the deposited data

Results flagged for a closer look

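The effect of stiripentol differed between the set of 2 and the set of 3 libraries by the limma interaction for 7 of the 8 tested genes. On the log2 scale, the effect in the set of 2 minus that in the set of 3 was -1.74 for Notch1, -0.83 for Notch2, -1.87 for Notch3, 0.75 for Jag1, -2.43 for Jag2, 0.71 for Hes1 and 1.06 for Hey1. The same test was passed by 63.3% of all genes tested. Which control set goes with which stiripentol set rests on the numbering in the study, which differs from that of the sample records, and the cause of the sets was not tested. No library stood apart from its group by Dixon's test in the 20 groups of 5 values examined, where chance flags about 1. Where values split into a set of 2 and a set of 3, that test can hardly flag a single library.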

How the results depend on the processing

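Dll1 and Hey1 kept their direction and call in every alternative but 1, and Jag1 and Notch3 kept their direction. The exception was 1 mean per group and set, 2 against 2, where 0 of the 8 members, 0 pathway genes and 0 of all genes were called by limma, with 2 members and 1116 genes at an unadjusted p under 0.05. Leaving out 1 library gave 2 to 5 called members, the lowest without control 5 or stiripentol 2 and the highest, with Notch2 added, without stiripentol 5. The set of 2 alone gave 8. The pathway count of 14 became 28 with a term for the library set, 33 in the set of 2, 30 in the set of 3 and 6 with an absolute log2 change of at least 1. Notch1 reversed to -0.74 in the set of 2. Jag2 reversed to 0.95 in the set of 3, 0.13 after quantile normalization, 0.0570 with TMM, 0.0528 with median-ratio scaling and 0.0131 with voom, and ranged from -0.18 to 0.24 without single libraries. Hes1 reversed to -0.0715 in the set of 3 and ranged from -0.0040 to 0.33 without single libraries. The difference between sets of Dll1 was 0.53 after quantile normalization. The cause of these reversals was not tested. Over all genes, 1740 lower and 1674 higher calls became 3336 and 2908 with a term for the set. Quantile normalization moved the median of all genes by 0.10, and by 0.33 in the interaction.

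The replicate numbers of the sample records put most controls with stiripentol libraries of the other set. Deviations of same-numbered libraries correlated at -0.24 to 0.06 (mean -0.15). With the sets crossed in this way, these correlations cannot show whether the samples were paired. Pairing by the numbers of the study was not tested. With the replicate block, 3 members (Notch3, Dll1 and Hey1), 10 pathway genes, and 1062 lower and 1020 higher genes of all were called. Depth limits Dll3 and Dll4, which had at most 13 reads in a library.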

Other observations

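Some pathway genes outside the 14 called over all libraries were called within the library sets. All genes given here were chosen after their values were seen. Fbxw7, the ubiquitin ligase subunit that marks the Notch intracellular domain for degradation, had a mean of 4.22 log2 CPM in controls and 1.00 in stiripentol libraries of the set of 2, and of 5.01 and 4.66 in the set of 3. It fell by 3.21 on the log2 scale in the set of 2 and by 0.35 in the set of 3, and the difference between these effects was -2.86 (limma interaction, adjusted p = 1.33e-06). Rbpj had the opposite order, with a log2 change of -0.18 in the set of 2 (limma adjusted p = 0.253) and -1.12 in the set of 3 (limma adjusted p = 9.53e-06), and a difference of 0.94 (limma interaction, adjusted p = 0.000293). Lfng, which is among the 14, fell in both sets, by 1.81 and 1.29 on the log2 scale. Yap1, which is outside the pathway list, fell by 1.36 and 0.55.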
